A study of Homo sapiens with 10 samples.

Results

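Processed pseudogenes of ribosomal protein genes took up a small share of the RNA-seq counts of TPC-1 cells. They were taken as the genes annotated as processed pseudogenes, with a name built from a ribosomal protein gene and a pseudogene number, that averaged 10 or more counts over the 10 libraries. This left 65 of 1083 such pseudogenes by name, and 65 of 58735 genes in all. The remaining ones include 705 with 0 counts in every library. The 65 were chosen by their mean count in these libraries, so their levels are given as a description. Each was read beside its parent gene, the ribosomal protein gene in its name, and the 65 have 37 parents between them.

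TPC-1 is an established human papillary thyroid carcinoma line, known to carry a fusion of the kinase gene RET. Cells carried a vector that overexpresses the long non-coding RNA PTCSC3-AS1 (OE, n = 5) or an empty vector (EV, n = 5), with no other treatment or time given in the labels. Replicates 4 and 5 of each group were deposited in one table (here the second set) and replicates 1 to 3 in another (the first set), and what else separates the sets is not stated. Separate cultures are not stated either, so the p-values measure a spread of libraries that may be technical. The gene names read did not include PTCSC3-AS1, so the OE labels were not checked against it. Each library held 15761474 to 18066559 counts. The thyroid lineage factor PAX8 was at 348 to 479 CPM (counts scaled by library size with TMM factors) and RET at 40.7 to 50.03 CPM, while the lineage markers NKX2-1, TSHR and SLC5A5 were at 0 in every library. In bulk RNA, fewer cells that express a gene and less RNA per cell cannot be told apart.

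Ribosomal proteins form the small subunit (genes named RPS) and the large subunit (RPL) of the ribosome together with the ribosomal RNAs, and their messenger RNAs are among the most abundant in growing cells. A processed pseudogene is a copy of a messenger RNA that was reverse transcribed and inserted elsewhere in the genome, so it has no introns and often lacks a promoter of its own. Because such copies stay close to the parent in sequence, a short read from the parent can fit a copy equally well, and a read counted for the copy need not have been transcribed there. The read length, the treatment of reads with several matches and the strand setting of the counting are not stated in the sources at hand. Whether a count came from the copy or from its parent was therefore not tested, and values of near-identical copies are uncertain.

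Sequence set the first limit on reading these values. Over the aligned length, the 65 pseudogenes were identical to the parent transcript at a median of 98.5% of bases (range 84.2 to 100%). Of them, 42 were at 98% or more and 2 under 90%, RPSAP70 and RPL7AP28. In 5 there was neither a mismatch nor a gap: RPS28P7, RPL39P3, RPL21P16, RPL41P1 and RPL41P5. Another, RPL22P1, had 0 mismatches and 7 gap bases. The letters of a read that lies wholly within an identical copy cannot name its source. Reads running past the ends of a copy were not examined. For RPS28P7 (GRCh38, chr11:82689559-82689768, plus strand), RPL39P3 (chr6:73373108-73373263, minus strand) and RPL41P5 (chr12:93083598-93083675, minus strand) the whole annotated pseudogene, which equals the parent's coding sequence with its stop codon, reads 5′ to 3′ as follows, in lower case throughout because no base differs.
RPS28P7: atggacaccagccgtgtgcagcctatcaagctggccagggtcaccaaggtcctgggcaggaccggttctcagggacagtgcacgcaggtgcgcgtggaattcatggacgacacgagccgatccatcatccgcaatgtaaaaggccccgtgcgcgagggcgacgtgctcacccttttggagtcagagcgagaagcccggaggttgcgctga
RPL39P3: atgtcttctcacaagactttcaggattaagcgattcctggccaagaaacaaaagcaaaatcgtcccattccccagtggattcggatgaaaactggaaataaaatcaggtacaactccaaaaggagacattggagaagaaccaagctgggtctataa
RPL41P5: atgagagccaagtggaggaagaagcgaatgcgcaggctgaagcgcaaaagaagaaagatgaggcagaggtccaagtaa

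Other copies differ from the parent at scattered bases, and these are the positions at which a read can tell them apart. The next lines give, for 3 copies whose counts differed between the sets, the 100 bases of coding sequence with the most mismatches, in capitals, and the same stretch of the parent transcript. The windows lie on GRCh38 at chrX:23836955-23837054 (minus strand) for RPL9P7, chr6:42956543-42956642 (minus strand) for RPL24P4 and chr17:28468189-28468288 (plus strand) for RPS7P1. Counted from the first base of the parent's coding sequence, parent base first, the differences are C351T and T366C in RPL9P7, C113T, T117G and A186G in RPL24P4, and T390C, G422T and T467C in RPS7P1.
RPL9P7: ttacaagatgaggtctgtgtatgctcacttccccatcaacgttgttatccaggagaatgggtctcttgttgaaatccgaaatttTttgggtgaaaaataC
RPL9: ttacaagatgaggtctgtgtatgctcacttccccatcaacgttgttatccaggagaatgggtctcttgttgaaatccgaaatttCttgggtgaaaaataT
RPL24P4: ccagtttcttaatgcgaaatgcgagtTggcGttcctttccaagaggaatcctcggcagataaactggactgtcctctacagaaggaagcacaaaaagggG
RPL24: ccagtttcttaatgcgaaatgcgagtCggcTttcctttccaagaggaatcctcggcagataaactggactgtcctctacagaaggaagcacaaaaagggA
RPS7P1: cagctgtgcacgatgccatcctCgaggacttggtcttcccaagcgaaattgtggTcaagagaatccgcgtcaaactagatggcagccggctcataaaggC
RPS7: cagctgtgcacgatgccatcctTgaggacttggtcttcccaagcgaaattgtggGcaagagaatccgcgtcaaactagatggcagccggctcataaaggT

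The more diverged copies are shown by RPL37AP1 (chr20:44466614-44466713, minus strand), RPL12P14 (chr1:15793106-15793205, plus strand) and RPL7AP28 (chr4:131857593-131857692, minus strand), again in the window with the most mismatches. RPL37AP1 has 7 in its 100 bases, RPL12P14 has 8 and RPL7AP28 has 19.
RPL37AP1: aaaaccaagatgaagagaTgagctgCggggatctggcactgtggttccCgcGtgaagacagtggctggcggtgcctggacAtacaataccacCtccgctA
RPL37A: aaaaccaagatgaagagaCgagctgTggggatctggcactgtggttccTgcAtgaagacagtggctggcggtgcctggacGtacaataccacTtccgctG
RPL12P14: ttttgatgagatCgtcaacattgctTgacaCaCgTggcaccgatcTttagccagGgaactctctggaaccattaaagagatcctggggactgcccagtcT
RPL12: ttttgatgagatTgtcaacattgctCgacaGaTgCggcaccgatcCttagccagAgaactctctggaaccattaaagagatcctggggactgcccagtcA
RPL7AP28: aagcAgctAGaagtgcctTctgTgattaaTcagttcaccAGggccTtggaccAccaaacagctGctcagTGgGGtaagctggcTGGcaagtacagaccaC
RPL7A: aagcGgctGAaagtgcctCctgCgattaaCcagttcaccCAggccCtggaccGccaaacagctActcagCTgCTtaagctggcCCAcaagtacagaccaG

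How much of each pseudogene could be recognised was measured as the share of its windows of 100 bases that occur in no other GENCODE 29 transcript. The median was 72.9% over the 63 pseudogenes long enough to be scored. The share was 0% for 3 of them and 100% for 9, and 17 were under 50%. Across the 63, the share of unique windows ran against the log2 mean count (Pearson r = -0.44, Spearman rho = -0.47). Identity to the parent ran with the count as a percent of the parent's count (rho = 0.60, n = 65). These are descriptions across genes that share libraries and, within a family, a parent. In 31 of the 65 the longest open reading frame was at least 99% as long as the coding sequence of the aligned parent transcript. In 20 it was under 50% as long. Only lengths were compared, so this does not show that the parent's frame was kept.

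The counts differed widely. The mean count was 79.9 at the median and ranged from 10.7 to 8211.6, with 10 pseudogenes at 1000 or more and 29 at 100 or more. The 5 highest held 56.4% of the counts of all 65. RPS2P5, a copy of the small-subunit gene RPS2, had the most counts, with 586, 492, 471, 540 and 449 CPM in OE replicates 1 to 5, against 458, 601, 398, 427 and 411 CPM in EV replicates 1 to 5. The groups overlapped, and EV replicate 2 was the highest of all. RPS28P7 had 252, 234, 231, 202 and 200 CPM in OE cells and 234, 329, 196, 196 and 199 CPM in EV cells. RPL7P1, a copy of RPL7 of the large subunit, had 196, 183, 166, 159 and 143 CPM in OE cells and 187, 349, 200, 152 and 159 CPM in EV cells. For both, EV replicate 2 again stood above the other 9 libraries. RPS2P46, RPL10P16, RPL7P9 and RPL13AP5 were among the next, with mean counts of 3125 to 1420.8. At the other end, RPL24P2 (10.8), RPS3AP5 (10.7) and RPL38P4 (10.7) lay just inside the minimum of 10 counts, and RPL7AP30 (8.7), RPS11P5 (8.6) and RPL13AP7 (8.3) just outside.

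Most pseudogenes had a small part of their parent's count. The count as a percent of the parent's was 0.802% at the median, and 34 of 65 were below 1%. Those above 10% numbered 8, among them RPS28P7 (141% of RPS28), RPS10P3 (83.8% of RPS10), RPL39P3 (29.7% of RPL39), RPS2P5 (22.6% of RPS2), RPL26P19 (15.5% of RPL26), RPL7P1 (13.2% of RPL7) and RPS7P1 (11.3% of RPS7). RPS28P7, whose sequence above is the RPS28 coding sequence, had 120, 134, 133, 106 and 160% of the RPS28 count in OE replicates 1 to 5 and 168, 146, 154, 155 and 164% in EV replicates 1 to 5. It exceeded its parent in every library. For RPS10P3 the parent count was low. RPS10, which encodes a protein of the small subunit, averaged 33.4 counts, and 39.4% of its exon bases also lie in exons of the readthrough gene RPS10-NUDT3, which had 0 counts. RPL26 averaged 564 counts, the next lowest of the 37 parents. Of its exon bases, 14.3% also lie in exons of AC135178.2 on the same strand, which had 0 counts. RPL26P19 shares some stretches of 100 bases with both genes.

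Per kilobase of the deposited gene length, 5 pseudogenes were above their parent: RPS28P7 (14.2 times), RPL39P3 (4.07 times), RPS10P3 (4.002 times), RPL22P1 (1.09 times) and RPS7P1 (1.07 times). The lowest per kilobase were RPS2P55 (0.00156 times RPS2), RPL7AP66 (0.00209 times RPL7A), RPS3AP5 (0.00258 times RPS3A), RPSAP70 (0.00265 times RPSA) and RPSAP9 (0.004295 times RPSA). The deposited length counts every annotated exon of a parent, so these ratios run high for the pseudogene. RPSAP70 overlaps an exon of FAM149A on the same strand. Of its windows of 100 bases, 45.6% are unique, 0% are shared with RPSA and the others are shared with FAM149A. RPL9P7 was at 0.291 times RPL9 per kilobase. Another copy, RPL9P9, which the annotation types as a transcribed processed pseudogene and which the rule therefore leaves out, averaged 5921.8 counts, against 4757.7 for RPL9 itself.

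**Figure D1:**
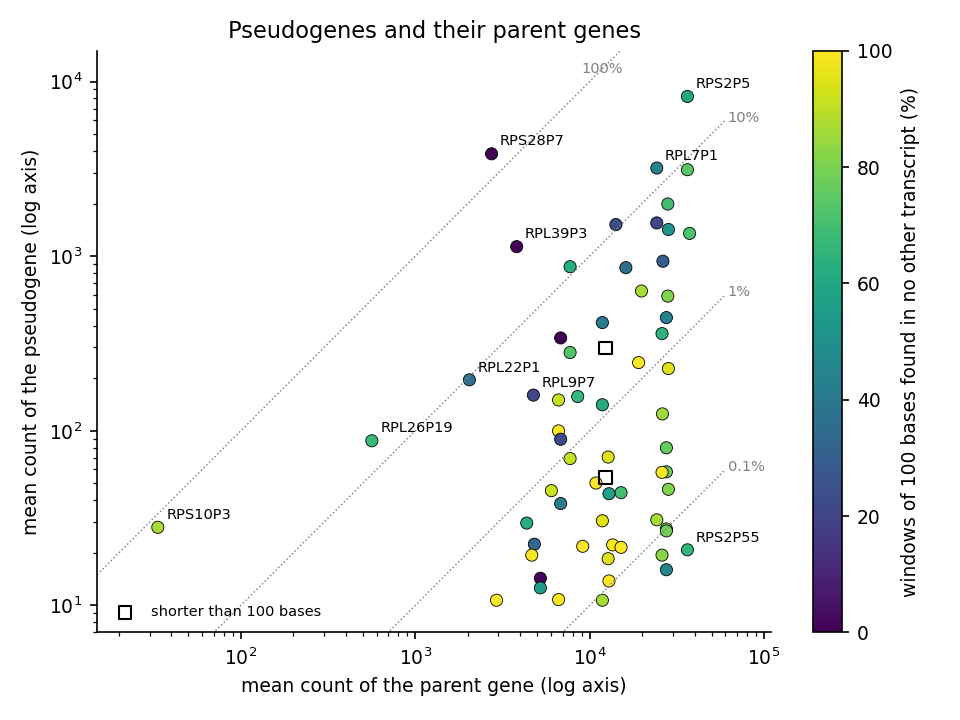
Mean count of each pseudogene (vertical, log axis) against that of its parent gene (horizontal, log axis) over 10 libraries, with dotted lines at fixed percentages of the parent and colour for the share of windows of 100 bases found in no other transcript. RPS28P7 alone lies above the 100% line, and 34 of 65 lie below the 1% line.

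Families with 3 or more copies numbered 9, and their members differed widely. Of the 6 copies of RPSA, a small-subunit protein also known as a laminin receptor, RPSAP58 averaged 444.5 counts and RPSAP70 16.0, and together they came to 2.37% of the RPSA count. The 3 copies of RPS2 came to 31.2% of their parent and the 3 copies of RPL7 to 19.7%. The 3 copies of RPS7 came to 15.8%, the 3 of RPL21 to 6.86%, the 3 of RPL13A to 5.99%, the 4 of RPS3A to 5.06%, the 3 of RPL24 to 3.93% and the 3 of RPL7A to 1.68%. In position, the 65 lay on 21 chromosomes, and 3 were on the chromosome of their parent. Another gene on the same strand held 14 of them, and 8 of these host genes averaged 10 or more counts. In all, 22 lay antisense to a gene, and some of these, such as RPL18AP3 and RPL39P3, also lay within a gene on the same strand. Reads of a host and an inserted copy cannot be told apart where the copy lies in an exon or in unspliced RNA of the host.

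Summed over all 65, the pseudogenes held 0.209% ± 0.0125 of counts in OE libraries and 0.216% ± 0.0408 in EV libraries (SD, n = 5 each). The difference is smaller than the spread within either group. EV replicate 2, at 0.288%, set the spread in EV cells, against 0.192 to 0.228% in the other 9 libraries. Its parent genes were raised too, at 3.81% of counts, against 2.61 to 3.12% in the others. As a percent of the summed parent counts, the pseudogenes were at 7.28, 7.27, 7.29, 7.19 and 6.98% in OE replicates 1 to 5 and at 7.43, 7.57, 7.36, 6.96 and 6.83% in EV replicates 1 to 5. EV replicate 2 is again the highest on this measure, at 7.57%, against 7.27 to 7.43% in the other first-set libraries. All 4 second-set libraries lie below all 6 first-set libraries.

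**Figure D2:**
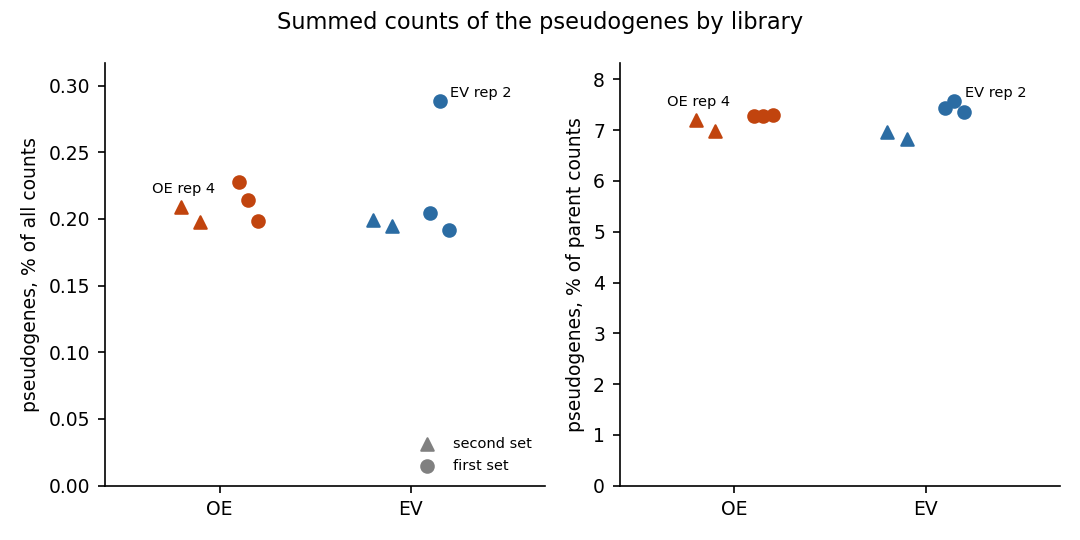
Summed count of the 65 pseudogenes as a percent of all counts (left) and as a percent of the summed parent counts (right) in each OE and EV library, with triangles for the second set and circles for the first. EV replicate 2 stands apart on the left at 0.288%, and on the right the second set lies at 6.83 to 7.19%, below the first set at 7.27 to 7.57%.

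No pseudogene passed the test of OE against EV. Of 64 tested in the fit over both sets (edgeR quasi-likelihood test with the set as a term, Benjamini-Hochberg adjusted p under 0.05 over all genes), 0 were higher and 0 lower, as for all 14217 genes tested, of which 0% were called. RPL24P2 did not pass the filter on low counts. At an unadjusted p under 0.05 there was 1 pseudogene, and DESeq2 called 0. The median log2 change was -0.05, against -0.0028 over all genes tested and -0.04 over the 37 parents. The lowest p belonged to RPL15P3, a copy of RPL15 of the large subunit. It had 51.9, 51.8, 49.4, 55.4 and 58.5 CPM in OE replicates 1 to 5, against 48.1, 45.8, 43.8, 51.3 and 48.3 CPM in EV replicates 1 to 5. Within each set every OE library was above every EV library, and the log2 change of 0.17 (SE 0.07, adjusted p = 0.847) did not pass. The other estimates with the lowest p were 0.52 (SE 0.29) for RPL37AP1 and 0.15 (SE 0.11) for RPS2P5 on the high side (RPS2P55 0.49, SE 0.37, and RPL7AP28 0.25, SE 0.24), and -0.35 (SE 0.17) for RPL9P7 and -0.94 (SE 0.49) for RPL12P14 on the low side. RPL7P9 (-0.24, SE 0.12), RPL7P1 (-0.28, SE 0.15) and RPSAP58 (-0.27, SE 0.14) were next. In no pseudogene did all OE libraries lie above all EV libraries, or below, beside 0.253% and 0.295% of all genes tested.

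The change relative to the parent was tested directly, as the log2 ratio of the 2 counts in each library. In this limma fit of 242 processed pseudogenes, 0 of the 65 differed between OE and EV, as for the whole fit (0% called), and 1 of the 65 had an unadjusted p under 0.05. That was RPL37AP1, a copy of the large-subunit gene RPL37A with 100% unique windows. Its count was 0.328, 0.3003, 0.283, 0.220 and 0.236% of the RPL37A count in OE replicates 1 to 5, against 0.207, 0.215, 0.222, 0.160 and 0.136% in EV replicates 1 to 5. Within each set every OE library was above every EV library, at counts of 15 to 39 in OE and 8 to 31 in EV. The log2 ratio differed by 0.53 (SE 0.11, adjusted p = 0.176) and did not pass over the whole fit. At these counts, counting error alone gives a wider SE, and the fit does not weight ratios by count. The SE of 0.11 is therefore too narrow to be read as precision.

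Fitted alone, the first set gave 0 of 64 pseudogenes called for OE against EV, beside 0.0349% of all genes tested, and the second set 0 of 62, beside 0%. By unadjusted p under 0.05 there were 3 in the first set and 1 in the second, and DESeq2 called 1 (RPL12P14, lower) in the first set and 0 in the second. The first-set result rests on EV replicate 2. Without it, RPS20P14 (log2 change 0.69, SE 0.16, adjusted p = 0.00586) and RPS2P5 (0.27, SE 0.08, adjusted p = 0.0236) were called higher and RPL12P14 lower (-2.15, SE 0.52, adjusted p = 0.00774), beside 10.7% of all genes tested. RPS20P14, a copy of the small-subunit gene RPS20, had 23.2, 17.5 and 14.95 CPM in the 3 first-set OE libraries, against 12.4, 26.8 and 10.4 CPM in EV replicates 1, 2 and 3, so that EV replicate 2 alone exceeded the OE libraries.

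RPL12P14, a copy of RPL12 of the large subunit with 100% unique windows, gave opposite estimates in the sets. In the second set it had 1.84 and 1.45 CPM in OE replicates 4 and 5, against 0.974 and 0.958 CPM in EV replicates 4 and 5. In the first set it had 0.513, 0.444 and 0.342 CPM in OE replicates 1 to 3, against 1.35, 2.45 and 2.54 CPM in EV replicates 1 to 3. The groups did not overlap within either set, and the order was reversed between them. These are counts of 31 and 25 against 17 and 15, and of 9, 8 and 6 against 24, 38 and 42. The interaction, the log2 change in the second set minus that in the first, was 3.03 (SE 0.59, adjusted p = 0.433) and did not pass in the edgeR fit, in which 0 of 64 pseudogenes and 0.00703% of all genes were called (2 pseudogenes at an unadjusted p under 0.05). DESeq2 did call it (adjusted p = 0.0290), and so did edgeR without the filter on low counts (adjusted p = 0.0249). RPL12 itself was at 794 to 968 CPM in OE libraries and 820 to 1156 CPM in EV libraries.

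Between the second set and the first, 22 of 64 pseudogenes passed the test, 4 higher and 18 lower, beside 18.4% of all genes tested (9.27% higher and 9.17% lower). The median log2 change was -0.44 over the pseudogenes, against -0.0012 over all genes tested. The parents had a median of -0.08, with 1 higher and 5 lower of 37. Of the 83 tested genes on a list of the cytoplasmic ribosomal proteins, 1 was higher and 9 lower. Among the 302 other processed pseudogenes tested, 12 were higher and 53 lower, with a median of -0.19. Of the 41 tested pseudogenes with a mean under 200 counts, 0 rose and 11 fell (median -0.56), and of the 23 with more, 4 rose and 7 fell (median -0.14). The pseudogenes were chosen by a mean over 6 first-set and 4 second-set libraries. Copies near the minimum that are high in the first set therefore pass more readily. RPS3AP5, for example, had 8 to 24 counts in the first set and 2 to 12 in the second. How much this adds to the lower counts of the second set, and to the lower ratios below, was not tested. In 12 pseudogenes all second-set libraries lay below all first-set libraries, and in 1 above, beside 7.88% and 8.68% of all genes tested.

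RPL9P7 fell most. It lies within APOO, a nuclear gene for a mitochondrial membrane protein, on the same strand. The second set had 2.97, 3.20, 3.21 and 2.62 CPM (OE replicates 4 and 5, then EV replicates 4 and 5), against 11.1, 12.4 and 10.2 CPM in OE replicates 1 to 3 and 12.3, 20.7 and 15.8 CPM in EV replicates 1 to 3. The sets did not overlap, and the log2 change was -2.17 (SE 0.19, adjusted p = 1.51e-05). RPL9, a protein of the large subunit, fell by 0.42 on the log2 scale (SE 0.13, adjusted p = 0.0415). The host APOO had a change of -0.25 (SE 0.14, adjusted p = 0.239). As a percent of RPL9, the pseudogene was at 1.17, 1.45, 1.52 and 1.07% in the second set, against 3.61 to 5.74% in the first. Of the windows of 100 bases in RPL9P7, 20.8% are unique, and the others are shared with RPL9 or RPL9P9. RPL9P9 had a log2 change of 0.14 between the sets (SE 0.13, adjusted p = 0.463).

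RPL24P4, a copy of RPL24 of the large subunit, had 4.63, 3.32, 5.44 and 3.70 CPM in the second set (OE replicates 4 and 5, then EV replicates 4 and 5), against 10.8, 11.7 and 11.1 CPM in first-set OE libraries and 11.4, 16.5 and 9.57 CPM in first-set EV libraries. All 4 second-set values lay below the first set, with a log2 change of -1.47 (SE 0.18, adjusted p = 1.81e-04), and 91.6% of its windows are unique. RPL24 had 0.12 (SE 0.13, adjusted p = 0.557). Both copies of RPL41, the smallest protein of the large subunit, also fell, RPL41P5 by 1.58 (SE 0.28, adjusted p = 0.00198) and RPL41P1 by 1.04 (SE 0.19, adjusted p = 0.00263) on the log2 scale. RPL41P5, whose sequence is printed above, had 1.48, 1.28, 1.49 and 1.53 CPM in the second set, against 3.53, 4.11 and 3.88 CPM in first-set OE libraries and 2.81, 7.94 and 3.997 CPM in first-set EV libraries. Their parent RPL41, which both match over the aligned length, had -0.19 (SE 0.11, adjusted p = 0.274). RPL22P1, which lies within MECOM, fell by 0.82 (SE 0.18, adjusted p = 0.00643), while MECOM had 0.06 (SE 0.08, adjusted p = 0.661) and RPL22 0.06 (SE 0.11, adjusted p = 0.726).

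RPS7P1, a copy of the small-subunit gene RPS7, rose most among the called pseudogenes. It had 45.3, 72.4, 71.1 and 76.0 CPM in the second set (OE replicates 4 and 5, then EV replicates 4 and 5), against 45.6, 40.03 and 35.95 CPM in first-set OE libraries and 36.1, 53.7 and 38.4 CPM in first-set EV libraries. OE replicate 4 lay within the first set, and the other second-set libraries above it. The log2 change was 0.66 (SE 0.14, adjusted p = 0.00510), while RPS7 had -0.08 (SE 0.11, adjusted p = 0.669). RPL13P12 had the same form, with 31.6 CPM in OE replicate 4 and 48.1, 49.9 and 48.4 CPM in the other second-set libraries, against 27.9 to 38.2 CPM in the first set (log2 change 0.45, SE 0.12, adjusted p = 0.0221). Over the 22 called pseudogenes, OE replicate 4 lay within the first-set range in 8, EV replicate 4 in 2, and OE replicate 5 and EV replicate 5 in 1 each.

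Most of the other called pseudogenes fell, by 0.42 to 1.57 on the log2 scale. Those that fell were RPS3AP47, RPS3AP26 and RPS3AP6 of the RPS3A family, RPL7P1 and RPL7P9 of the RPL7 family, RPS10P3, RPS26P3, RPS20P14, RPL37AP1, RPL4P4, RPL13AP5 and RPL7AP6, beside RPL26P19, which follows.

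RPL39P3 and RPL26P19 moved against parents that also passed the test. RPL39P3 had 83.2, 74.7, 75.6 and 85.5 CPM in the second set, against 59.4, 65.5 and 50.8 CPM in first-set OE libraries and 53.6, 73.0 and 48.0 CPM in first-set EV libraries. It was the 1 pseudogene with every second-set library above the first set, and it rose by 0.45 (SE 0.11, adjusted p = 0.0126). RPL39, a short protein of the large subunit, fell by 0.63 (SE 0.14, adjusted p = 0.00737), and the copy is identical to its coding sequence. As a percent of RPL39, the pseudogene was at 41.6, 48.9, 49.3 and 50.1% in the second set, against 19.7 to 26.01% in the first. RPL26P19 fell by 0.92 on the log2 scale (SE 0.28, adjusted p = 0.0341), while RPL26 rose by 0.97 (SE 0.12, adjusted p = 2.49e-04). RPL26 had 45.3, 48.3, 49.4 and 44.8 CPM in the second set, against 20.4 to 34.7 CPM in the first. With each library left out in turn, the fall of RPL26P19 passed in 5 of 10 fits and the rise of RPL39P3 in all 10. The ratio of RPL26P19 to RPL26, tested below, passed in all 10.

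**Figure D3:**
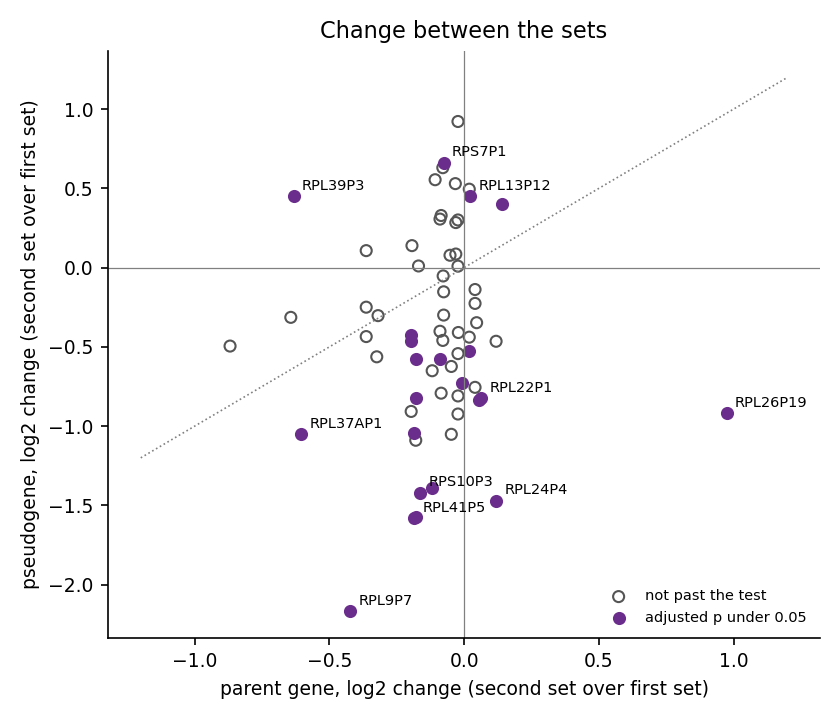
Log2 change of each pseudogene between the second set and the first (vertical) against that of its parent gene (horizontal), for the 64 tested pseudogenes, with filled points for an adjusted p under 0.05 and a dotted line of equal change. RPL9P7 is lowest at -2.17. Of the points in the quadrants of opposite sign, RPL39P3 and RPL26P19 are those where pseudogene and parent both passed the test.

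Set against the parent, 24 of the 65 ratios differed between the sets, 5 higher and 19 lower in the second set. Of the 242 processed pseudogenes in the fit, the 65 among them, 25.2% were called (6.2% higher and 19% lower). Of the 177 others, 20.9% were called (5.65% higher and 15.3% lower). Those with the lowest p were RPL39P3 (log2 ratio 1.08, SE 0.13, adjusted p = 5.28e-04), RPL9P7 (-1.74, SE 0.16, adjusted p = 1.53e-04) and RPL24P4 (-1.62, SE 0.15, adjusted p = 1.53e-04). RPL41P5 (-1.33, SE 0.19) and RPL26P19 (-1.91, SE 0.32) followed, and RPL10AP6 (0.67, SE 0.17), RPL21P16 (0.47, SE 0.13) and RPL10P16 (0.32, SE 0.10) were the other ratios that were higher beside RPS7P1 (0.72, SE 0.16). With each library left out in turn, RPL10P16 passed on the ratio in 0 of 10 fits, RPL21P16 in 4, RPL10AP6 in 6 and RPS7P1 in 9, and 9 of the 24 passed in all 10. Of the 22 pseudogenes called on their own, 17 also passed on the ratio. In 18 of the 22 the parent did not pass the test, in 2 it moved the same way, and in 2 the opposite way. Across the 64, the change of a pseudogene and that of its parent had Pearson r = 0.05 and Spearman rho = 0.11, as a description.

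**Figure D4:**
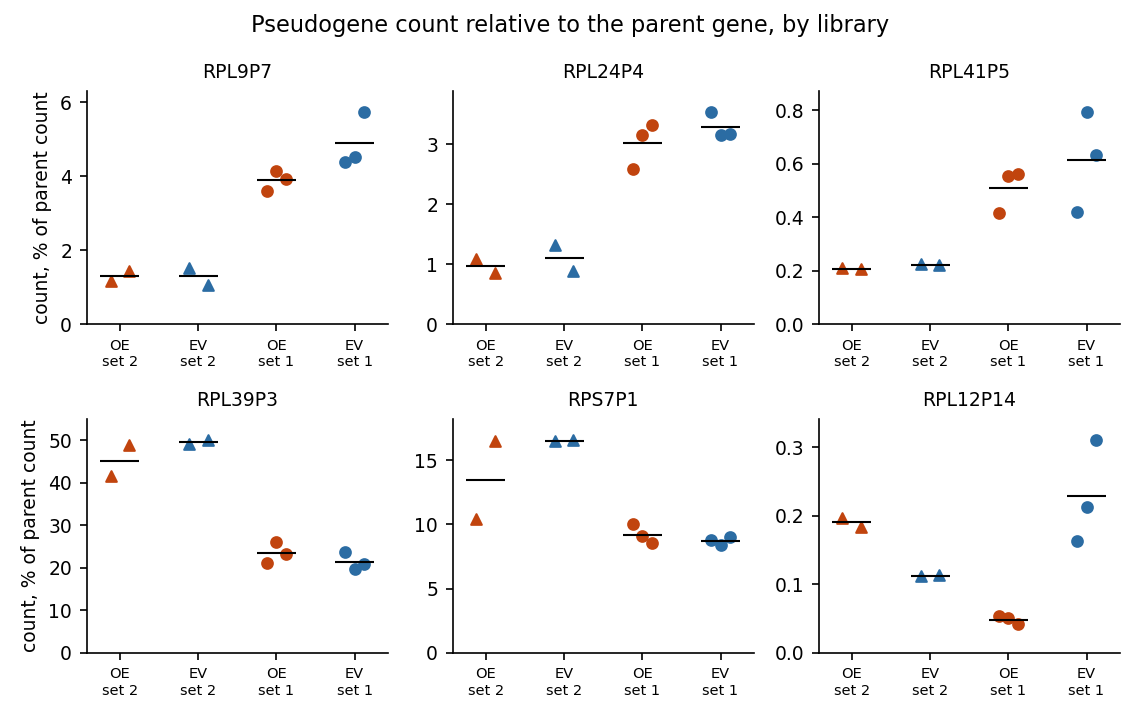
Count of 6 pseudogenes as a percent of the parent's count in each library, by set and group, with bars for the means. RPL9P7, RPL24P4 and RPL41P5 are lower in the second set, RPL39P3 is higher, RPS7P1 is higher, with OE replicate 4 at 10.4% close to the first set, and RPL12P14 reverses its order of OE and EV between the sets.

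These calls rest on few libraries. Leaving out each library in turn, 9 of the 22 were called in all 10 fits: RPL13AP5, RPL22P1, RPL24P4, RPL39P3, RPL41P1, RPL41P5, RPL9P7, RPS3AP47 and RPS7P1. The number called was 10 without EV replicate 4, 13 without EV replicate 5 or OE replicate 5, and 14 without OE replicate 1 or OE replicate 2. It was 24 without EV replicate 2, with 21 shared, and 22 without OE replicate 4, with 18 shared. Of the ratios, where 24 passed, the number was 11 when EV replicate 4 was left out. It was 12 when EV replicate 5 was, 13 when OE replicate 5 was and 15 when EV replicate 2 was. Leaving out EV replicate 3 took the higher ratios to 3.

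Precision followed the count. The SD of the log2 ratio of pseudogene to parent, within libraries of the same group and set, was 0.29 at the median. Against what counting error alone gives, it was 1.92 times at the median and over 2 times in 26 of 65. The lowest was 0.285 times, a spread below counting error. The SD itself ranged from 0.06 for RPL10P16 to 1.40 for RPL24P2, which had 23, 10, 8, 19 and 6 counts in OE replicates 1 to 5 and 8, 7, 0, 7 and 20 in EV replicates 1 to 5. RPL29P11 (0.88) and RPL5P34 (0.80) were among the widest at mean counts of 43.6 and 70.7. RPS2P5, with the most counts, had an SD of 0.10, against 0.0178 from counting alone. The mean count and this SD had Spearman rho = -0.81 across the 65.

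**Figure D5:**
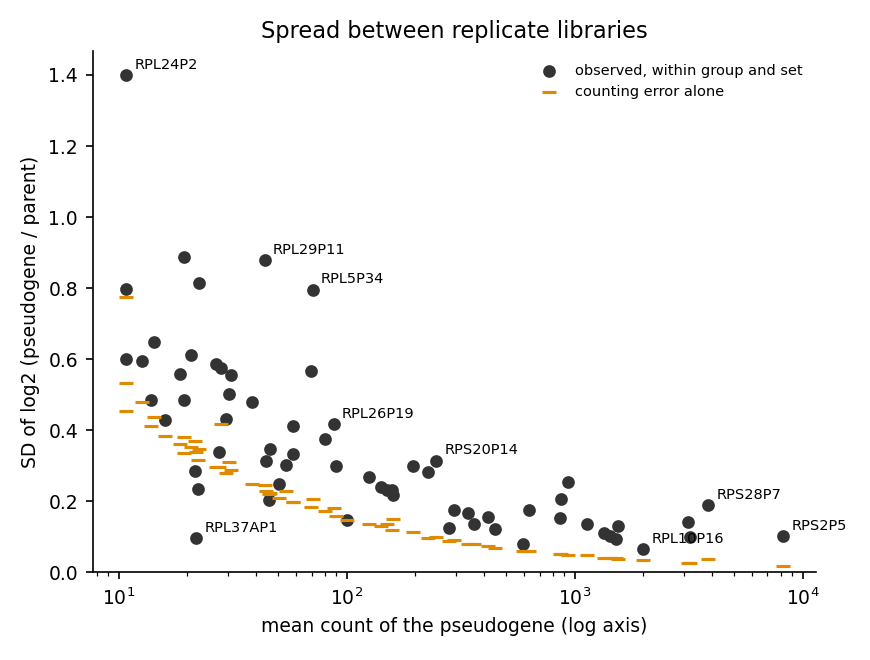
SD of the log2 ratio of pseudogene to parent within group and set (points) and the SD given by counting error alone (orange bars) against the mean count (log axis), for the 65 pseudogenes. The observed SD falls with the count and stays above counting error for most, with a median ratio of 1.92.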

How the data were processed

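RNA of 10 TPC-1 libraries (5 OE, 5 EV) was sequenced. The submitters' processing notes name hg38, DESeq2 1.20.0, featureCounts 1.5.0-p3, HISAT2 2.0.5, fastp and CASAVA 1.8. Per the file headers, the authors deposited whole-number counts per gene with a gene length. The 14 per-library columns of normalized values were not used. Values of 1 family are not reported here. The members, lists and rule for named genes (extremes of level, ratio to the parent, p and spread) were chosen with earlier results of these data known.

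Counts were tested in R 4.3.3 with edgeR 4.0.16 (quasi-likelihood, TMM, default filterByExpr, set and group as terms, Benjamini-Hochberg over all genes), with SEs implied by the test. Ratios, log2((count + 0.5)/(parent count + 0.5)), were fitted with limma 3.58.1. Both were run on simulated data with known changes. The simulation of the ratio fit gave every pseudogene the same spread, unlike the real ratios, so it does not test the SEs at low counts. Alternatives used another scaling, no filter, DESeq2 1.42.0, pseudocount 5, no set term, a replicate block or 1 library left out. Pseudogenes were aligned to parent transcripts with Biopython 1.88. Windows were compared with all GENCODE 29 transcripts, not the whole genome as first planned. Sequences are from GENCODE 29 (GRCh38). No library of a group was a copy of another (chi-square per degree of freedom at least 4.30 for each pair).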

Additional observations from a re-analysis of the deposited data

Results flagged for a closer look

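In each group of 5 libraries, the library farthest from the rest was compared with the spread of the group (Dixon's gap over range, critical value 0.71), for the summed share and for the named pseudogenes. Of 78 groups, 11 held such a library. Many of these pseudogenes were named for extremes in the same data, each group mixes both sets, and all share the same libraries. The number flagged is therefore a description, with no chance rate to set beside it. EV replicate 2 was the highest in 5 of them. The summed pseudogenes were at 0.288% of counts there, against 0.192 to 0.204% in the other EV libraries. RPL7P1 was at 349 CPM (others 152 to 200.3), RPL7P9 at 152 CPM (77.8 to 98.8), RPS20P14 at 26.8 CPM (8.19 to 12.4) and RPSAP58 at 41.4 CPM (23.9 to 28.2). Its parent genes also took their highest share of counts, 3.81%.

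OE replicate 5 was the highest OE library for RPL13P12 (48.1 CPM, others 31.6 to 33.4), RPS7P1 (72.4 CPM, others 35.95 to 45.6) and RPSAP58 (27.9 CPM, others 22.3 to 23.7). For the first 2 genes the EV libraries of the second set were at a like level, so the library set apart within OE cells by this measure is the one that stands with its set. RPL29P11 was at 7.598 CPM in EV replicate 5 (others 1.23 to 2.53), RPSAP12 at 3.02 CPM in OE replicate 1 (others 1.16 to 1.65) and RPSAP70 at 1.32 CPM in EV replicate 4 (others 0.766 to 0.844). FAM149A, which shares sequence with RPSAP70, was also at its highest in EV replicate 4, at 18.1 CPM. Whether reads of RPSAP70 came from FAM149A was not tested.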

How the results depend on the processing

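With OE against EV over both sets, 0 of the 65 were called under every alternative run, and the same holds for the ratio to the parent. In the first set, no filter on low counts gave 2 lower (RPL12P14 and RPL7P1) and DESeq2 1 lower (RPL12P14). Leaving out 1 library gave 0 to 2 higher and 0 to 1 lower, the calls coming without EV replicate 2. The interaction had 1 higher call without the filter and 1 by DESeq2, both RPL12P14. Between the sets, leaving out 1 library gave 2 to 6 higher and 8 to 22 lower on the pseudogene, and 1 to 5 higher and 9 to 22 lower on the ratio, while DESeq2 called 27 and no filter 30 in all, each with the 22 of edgeR among them. Without EV replicate 2, the ratio fit called 2 higher and 13 lower. Without the top pseudogene, RPS2P5, the summed share was 0.159% in OE and 0.170% in EV libraries. The median share of unique windows was 39.3% for windows of 50 bases and 92.7% for windows of 150. A minimum mean of 5 counts would give 83 pseudogenes and one of 20 would give 55. The replicate numbers were checked for pairing: deviations of the same-numbered OE and EV libraries correlated at -0.11, 0.0035, 0.16, 0.31 and 0.31, the last pair of values mirroring each other because the second set has 2 libraries per group. Not every correlation was over 0.1, so the numbers were not used as pairs, although the submitters describe the libraries as 5 pairs without naming what a pair shares. With the replicate block, the second set had 2 higher calls (RPL3P4 and RPS2P5) and 1 lower (RPS7P1), beside 0.492% of all genes tested, and the block changed no other count of calls. Depth limits the rare copies: 3 counts equal 0.166 to 0.190 CPM without TMM factors, which covers counting error only.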
